A study of Homo sapiens with 6 samples.

Results

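Cadherins are calcium-dependent adhesion proteins, and 10 genes of this superfamily were followed in H2452 cells with and without an sgRNA against *NF2*. They are the type I classical cadherins *CDH1*, *CDH2*, *CDH3* and *CDH4*, the type II classical cadherins *CDH6* and *CDH11*, the GPI-anchored cadherin *CDH13*, and the nonclustered protocadherins *PCDH1*, *PCDH7* and *PCDH9*. The genes were found by symbol among the 58735 genes of the deposited tables, where each symbol occurred once. They were selected on their family, with the counts and fold changes of these same 6 libraries already known, so their differences between the groups are given as a description and not as a test. H2452 is an established pleural mesothelioma line, and total RNA was sequenced from 3 sgCtrl libraries, which carried Cas9 and a scrambled sgRNA in cells labelled WT, and 3 sg*NF2*-1 libraries, labelled NF2-KO. Both groups were made by lentiviral delivery of Cas9, the sgRNA and mCherry, and mCherry-positive cells were sorted as a population, so that sg*NF2*-1 stands for a single guide in a pool of cells and not for a clone. The study's methods describe its replicates in general as biological, but neither they nor the labels say whether these libraries came from separate cultures, so the spread between them may be in part technical.

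Classical cadherins bind the same or related cadherins on the neighbouring cell through their extracellular repeats, and their cytoplasmic tails bind beta-catenin and p120-catenin, which link the junction to actin. E-cadherin, encoded by *CDH1*, is typical of epithelia, whereas N-cadherin, encoded by *CDH2*, is typical of mesenchymal cells and is also the main cadherin of mesothelium. Nonclustered protocadherins adhere more weakly, lack the catenin-binding tail and signal through other cytoplasmic partners. *NF2* encodes merlin, a membrane-cytoskeleton linker that is found at cadherin junctions and acts in the Hippo pathway.

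Libraries held between 14782423 and 17416463 counts. *NF2* itself had 1162, 1197 and 1025 counts in sgCtrl against 692, 802 and 590 in sg*NF2*-1, a log2 fold change of -0.69 (standard error 0.10), so that its transcript was lower, but still present, in the targeted cells. The study assessed the knockout on the protein by western blot, and the transcript level does not measure it. All 7 mesothelial markers that were listed passed the expression filter, with the keratin genes *KRT8*, *KRT18* and *KRT19* at the highest counts. Beyond the limits used below, 1 of the 7 was higher in sg*NF2*-1 (*MSLN*, log2 fold change 0.66) and 2 were lower (*WT1*, -1.04, and *KRT19*, -0.94). The same limits held for 8.42% of all tested genes as higher and 9.32% as lower. The summed level of the 7 markers was 3199 to 3609 CPM in sgCtrl and 2838 to 3487 CPM in sg*NF2*-1, where CPM is the count scaled to a common library size after TMM normalization. Of the leukocyte markers, *PTPRC* had 0 counts in every library, and *CD3E* and *LYZ* had at most 3 counts in any library. Of the 4 endothelial markers, *KDR* and *VWF* had at most 3 counts in any library. The summed level of the list was 6.39 to 8.71 CPM in sgCtrl and 1.99 to 3.30 CPM in sg*NF2*-1. Most of that sum in sgCtrl was *PECAM1*, with 100, 117 and 83 counts against 19, 26 and 16 in sg*NF2*-1. *CDH5*, itself a cadherin gene, had 12, 22 and 9 counts in sgCtrl against 14, 24 and 17 in sg*NF2*-1. Its log2 fold change was 0.37 (standard error 0.43). The part of these markers in the results below was not tested. In RNA from a whole population of cells, fewer cells expressing a gene and less RNA per cell cannot be told apart.

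The annotated promoter sequences of genes whose levels differed most between the groups were read from RefSeq (GRCh38.p14), as 250 bases before and 50 after a start. The table held 7 such promoters for 5 of the 10 genes, *CDH2*, *CDH4*, *PCDH1*, *PCDH7* and *PCDH9*, and had no entry for *CDH1*, *CDH3*, *CDH6*, *CDH11* and *CDH13*. The promoters of *CDH4* and *PCDH1*, the 2 genes with the largest increases, and of *PCDH7*, the gene with the largest decrease, are shown 5′ to 3′ on the strand of the gene. The 2 *CDH4* entries are on the plus strand and lie inside the gene as the deposited tables delimit it, at chr20:61499171-61499470 and chr20:61599511-61599810, the *PCDH1* window is on the minus strand at chr5:141869578-141869877, and the *PCDH7* window is on the plus strand at chr4:30720119-30720418. Capitals mark the letters CAGGTG on either strand, a form of the E-box that Snail-family repressors bind, and GGAATG on either strand, the core of the TEAD motif through which YAP acts.
CDH4 promoter, first start: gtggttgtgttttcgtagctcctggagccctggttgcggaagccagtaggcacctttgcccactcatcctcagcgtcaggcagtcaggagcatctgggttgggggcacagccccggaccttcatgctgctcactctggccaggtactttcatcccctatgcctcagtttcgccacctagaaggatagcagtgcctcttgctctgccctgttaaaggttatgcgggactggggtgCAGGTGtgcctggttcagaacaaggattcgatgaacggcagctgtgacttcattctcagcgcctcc
CDH4 promoter, second start: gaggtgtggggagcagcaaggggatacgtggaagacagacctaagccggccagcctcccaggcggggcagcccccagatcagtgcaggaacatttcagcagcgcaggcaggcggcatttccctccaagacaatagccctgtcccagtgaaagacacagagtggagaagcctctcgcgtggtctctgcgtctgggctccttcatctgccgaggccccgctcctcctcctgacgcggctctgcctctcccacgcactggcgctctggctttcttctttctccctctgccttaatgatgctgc
PCDH1 promoter: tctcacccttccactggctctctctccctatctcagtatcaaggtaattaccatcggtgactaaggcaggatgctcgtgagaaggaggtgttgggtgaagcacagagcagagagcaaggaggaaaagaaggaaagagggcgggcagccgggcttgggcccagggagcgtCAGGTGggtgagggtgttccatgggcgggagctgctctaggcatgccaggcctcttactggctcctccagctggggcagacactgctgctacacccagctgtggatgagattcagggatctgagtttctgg
PCDH7 promoter: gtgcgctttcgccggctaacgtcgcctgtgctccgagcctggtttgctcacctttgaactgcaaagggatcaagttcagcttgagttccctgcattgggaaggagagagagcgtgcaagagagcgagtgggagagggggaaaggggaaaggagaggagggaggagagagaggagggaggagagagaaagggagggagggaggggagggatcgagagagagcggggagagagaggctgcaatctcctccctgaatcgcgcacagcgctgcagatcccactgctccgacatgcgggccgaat
CAGGTG occurred in the first *CDH4* window and in the *PCDH1* window, and was not found in the second *CDH4* window, in *PCDH7*, in *PCDH9* or in either *CDH2* window. Of all 35116 promoters in the table, 20.6% held it on either strand. GGAATG was found in none of the 7 windows, against 14.0% of all promoters. The wider E-box CANNTG, which includes CAGGTG, occurred in both *CDH4* windows, in the *PCDH1* window and in the second *CDH2* window, and in 68.7% of all promoters. These are matches of letters in short windows, and counts per gene do not show which start was used. In the GENCODE release 29 annotation, 1 of 3 *CDH4* transcripts started inside the second window and 0 inside the first, 0 of 5 *CDH2* transcripts started in either *CDH2* window, and 1 of 8 did so for *PCDH1*, 1 of 8 for *PCDH7* and 2 of 6 for *PCDH9*. Most annotated starts of these genes therefore lie outside the windows.

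Among the genes followed here, the transcript of N-cadherin had the highest FPKM in every library. In CPM its order with *CDH13* was not the same, as given below. *CDH2* (ENSG00000170558, chromosome 18, 27950966 to 28177446, minus strand) had 48.32, 49.97 and 46.97 FPKM in the control libraries, against 39.4, 41.0 and 35.1 FPKM with the *NF2* guide. FPKM is the authors' count per kilobase of gene and per unit of sequencing depth. Each gene has a single length in it, which need not be that of the transcripts expressed. Orders, ratios and shares of genes in FPKM therefore rest on these lengths. The highest sg*NF2*-1 library was below the lowest control, and the mean went from 252.9 ± 7.43 to 203 ± 15.7 CPM (SD, n = 3 each). The fitted log2 fold change of the counts in edgeR was -0.32 (standard error 0.08), a level in CPM of 80.3% of the sgCtrl mean.

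R-cadherin, encoded by *CDH4*, differed from its close relative *CDH2* in direction. *CDH4* (ENSG00000179242, chromosome 20, 61252426 to 61940617, plus strand) had 3.57, 3.75 and 3.31 FPKM in sgCtrl against 8.94, 9.36 and 8.64 in sg*NF2*-1. Its mean level was 3.54 ± 0.223 FPKM in sgCtrl against 8.98 ± 0.363 in sg*NF2*-1 (SD, n = 3 each), with no overlap between the groups. The log2 fold change was 1.35 (standard error 0.09), and the level in CPM was 255.9% of the sgCtrl mean. The level of *CDH2* was therefore 13.7 ± 0.458 times that of *CDH4* in sgCtrl and 4.29 ± 0.190 times in sg*NF2*-1 (FPKM ratio within each library, SD, n = 3 each).

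The epithelial type I cadherins were at or next to the limit of detection in both groups. *CDH1*, the E-cadherin gene (ENSG00000039068, chromosome 16, 68737225 to 68835548), had 0 counts in all 6 libraries, which allows up to 3 counts or 0.170 to 0.211 CPM per library. *CDH3*, the P-cadherin gene (ENSG00000062038), lies on the same strand 14608 bases before *CDH1* and had 1 count in sgCtrl replicate 2 and 0 in the other libraries. These limits cover counting error only. No difference between the groups was detectable for either gene at this depth.

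Among the genes followed here, the type II cadherins *CDH6* and *CDH11* were low or not detected. *CDH11* (ENSG00000140937, chromosome 16, 64943753 to 65126112), which encodes OB-cadherin of mesenchymal and bone-forming cells, had 51, 59 and 75 counts in sgCtrl against 12, 12 and 2 in sg*NF2*-1. The sgCtrl libraries were all above the sg*NF2*-1 libraries, of which replicate 3 was the lowest. The means were 0.278 ± 0.0633 and 0.0375 ± 0.0242 FPKM (SD, n = 3 each). The log2 fold change was -2.83 (standard error 0.39). *CDH6* (ENSG00000113361, chromosome 5), which encodes K-cadherin of the developing kidney, had 2 counts in sgCtrl replicate 3 and 0 in every other library.

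T-cadherin, encoded by *CDH13*, is held in the membrane by a GPI anchor and lacks the cytoplasmic tail of the classical cadherins. *CDH13* (ENSG00000140945, chromosome 16, 82626803 to 83800640) was the second gene in level, with 21.2, 22.2 and 21.3 FPKM in sgCtrl against 26.4, 26.9 and 22.8 in sg*NF2*-1. The groups did not overlap, although sg*NF2*-1 replicate 3 was close to the sgCtrl libraries. The means were 21.6 ± 0.553 and 25.4 ± 2.26 FPKM (SD, n = 3 each), and the log2 fold change in edgeR was 0.25 ± 0.08 (SE). *CDH2* stood at 2.25 ± 0.0410 times the level of *CDH13* in sgCtrl and at 1.52 ± 0.0249 times in sg*NF2*-1 (FPKM ratio, SD, n = 3 each). In CPM, which is not divided by length, the order was not the same. The mean of *CDH13* was 254.5 CPM in sgCtrl and 302.1 in sg*NF2*-1, against 252.9 and 203 CPM for *CDH2*. The sources used here do not say that strand was used in counting, so reads may be split either way between *CDH13* and antisense genes inside it. Of the genes annotated inside *CDH13*, *AC099506.1*, *AC009119.1*, *MIR8058* and *AC009142.1* had a mean of at least 1 count and at most 22 counts in any library, against 3827 or more for *CDH13*, and *AC110015.1* and *AC006249.1* inside *CDH2* had at most 5.

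The 3 nonclustered protocadherins did not share a direction. *PCDH1* (ENSG00000156453, chromosome 5, 141853111 to 141879246), which encodes an adhesion protein of airway epithelium, had 10.6, 11.2 and 9.90 FPKM in sgCtrl against 15.5, 16.4 and 17.2 in sg*NF2*-1. Every sg*NF2*-1 library was above the sgCtrl libraries, the means were 10.6 ± 0.665 and 16.4 ± 0.820 FPKM (SD, n = 3 each), and the log2 fold change was 0.64 (standard error 0.09). *PCDH7* (ENSG00000169851, chromosome 4, 30720415 to 31146805), which encodes a protocadherin that binds protein phosphatase 1 and SET, had 81, 50 and 53 counts in sgCtrl against 4, 10 and 6 in sg*NF2*-1. Its level in CPM in sg*NF2*-1 was 11.1% of the sgCtrl mean, and its log2 fold change was -3.17 (standard error 0.39). *PCDH9* (ENSG00000184226, chromosome 13, 66302834 to 67230445), a gene best known from the brain, had 5, 9 and 12 counts in sgCtrl against 4, 3 and 1 in sg*NF2*-1. Its groups did not overlap on the CPM scale (0.552 ± 0.237 against 0.164 ± 0.0828 CPM, SD, n = 3 each), but the sg*NF2*-1 libraries were close to the limit that 3 counts set, and the gene did not pass the expression filter.

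**Figure D1:**
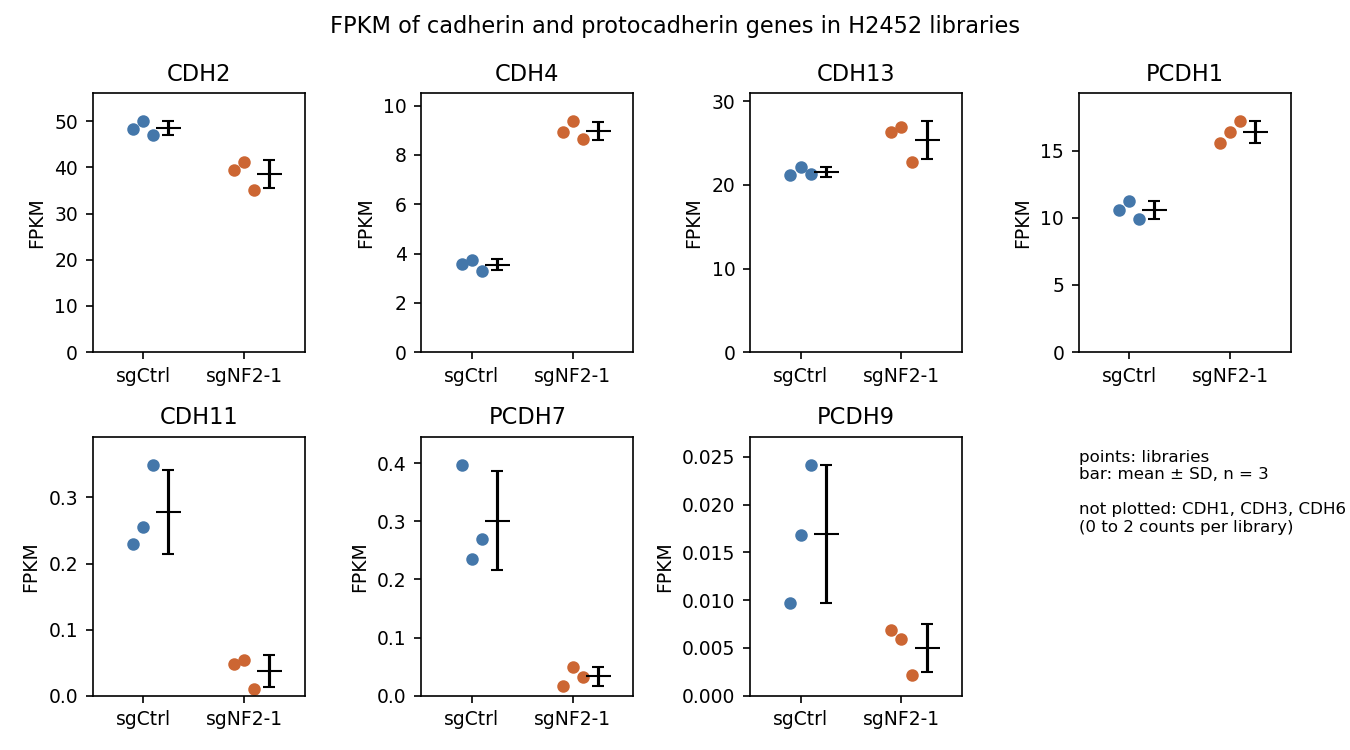
FPKM (vertical axis, from 0, a separate scale in each panel) of 7 genes in the 3 sgCtrl and 3 sgNF2-1 libraries; points are libraries and bars are the mean ± SD. *CDH4*, *CDH13* and *PCDH1* were higher in every sgNF2-1 library and *CDH2*, *CDH11*, *PCDH7* and *PCDH9* were lower, with sgCtrl means from 48.4 FPKM for *CDH2* down to 0.0169 FPKM for *PCDH9*.

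In order of FPKM, the sgCtrl cells had *CDH2*, *CDH13*, *PCDH1*, *CDH4*, *PCDH7*, *CDH11* and *PCDH9*, followed by *CDH6*, *CDH3* and *CDH1* at or near 0. The neighbours *PCDH7* and *CDH11* did not differ beyond their spread, at 0.236 to 0.398 and 0.229 to 0.349 FPKM. In sg*NF2*-1 the first 4 genes stood in the same order, and *CDH11* and *PCDH7* again overlapped, at 0.00984 to 0.0547 and 0.0174 to 0.0498 FPKM. The summed FPKM of the 10 genes was 84.7 ± 2.77 in sgCtrl and 89.3 ± 5.10 in sg*NF2*-1 (SD, n = 3 each). The libraries lay at 82.2 to 87.7 in sgCtrl and 83.8 to 93.8 in sg*NF2*-1, so the groups overlapped. The make-up of that sum differed more. *CDH2* held 57.2 ± 0.166% of it in sgCtrl and 43.1 ± 1.01% in sg*NF2*-1. *CDH4* went from 4.18 ± 0.135% to 10.1 ± 0.221%, and *PCDH1* from 12.5 ± 0.390% to 18.4 ± 1.84%. *CDH13* held 25.5 ± 0.445% and 28.4 ± 1.05% (SD, n = 3 each).

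**Figure D2:**
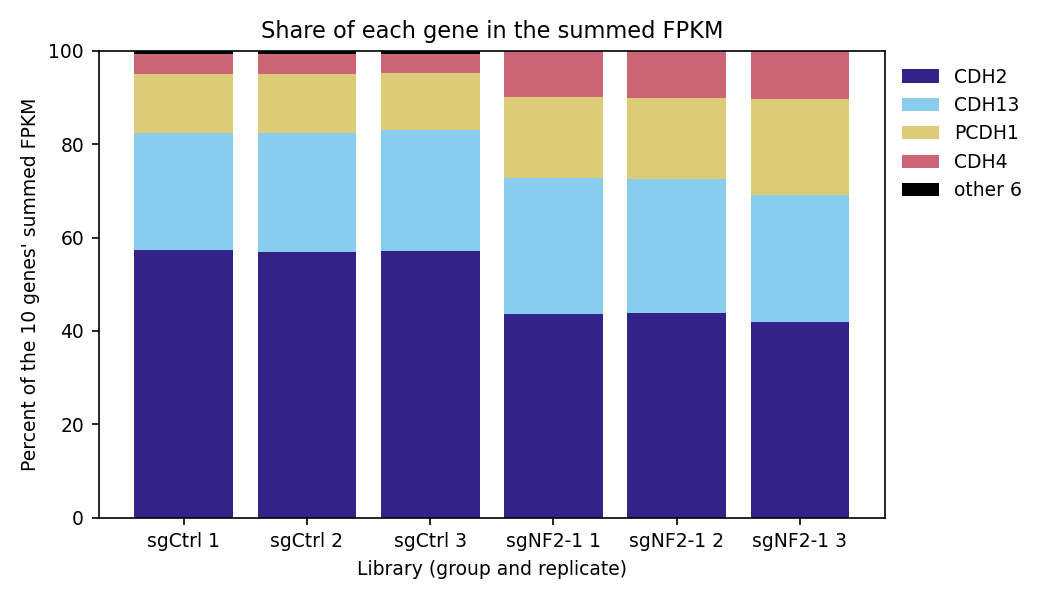
Percent of the summed FPKM of the 10 genes (vertical axis) held by each gene in each of the 6 libraries (horizontal axis); the black segment sums the other 6 genes. *CDH2* was the largest segment in every library, at a mean of 57.2% in sgCtrl and 43.1% in sgNF2-1, and the *CDH4* segment went from 4.18% to 10.1%.

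Of the 10 genes, 6 passed edgeR's expression filter and 4 did not (*CDH1*, *CDH3*, *CDH6* and *PCDH9*). A gene was called at a Benjamini-Hochberg adjusted p under 0.05 over all 14179 tested genes, from edgeR's quasi-likelihood test, and a log2 fold change beyond 0.5. Under this rule 2 of the 6 were called higher (*CDH4* and *PCDH1*), beside 8.42% of all tested genes, and 2 were called lower (*CDH11* and *PCDH7*), beside 9.32%. Both lower genes passed the filter through their sgCtrl counts. *CDH2* and *CDH13* stayed inside the fold limit, and without that limit 3 of the 6 counted as higher, beside 17.7% of all tested genes, and 3 as lower, beside 16.6%. *CDH13* was no longer past the adjusted p limit without sgCtrl replicate 1, sg*NF2*-1 replicate 1 or sg*NF2*-1 replicate 2. The groups did not overlap in CPM for any of the 6, where this held for 45.3% of all tested genes. Since the genes were chosen with these values known, the counts are a description. The direction of each of the 6 stayed as given under every alternative in which it was tested, but with a filter of at least 10 counts in every library neither *CDH11* nor *PCDH7* was tested. With any 1 library omitted, the log2 fold change ranged from -3.59 to -2.83 for *PCDH7*, from -3.15 to -2.41 for *CDH11* and from 1.31 to 1.40 for *CDH4*.

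**Figure D3:**
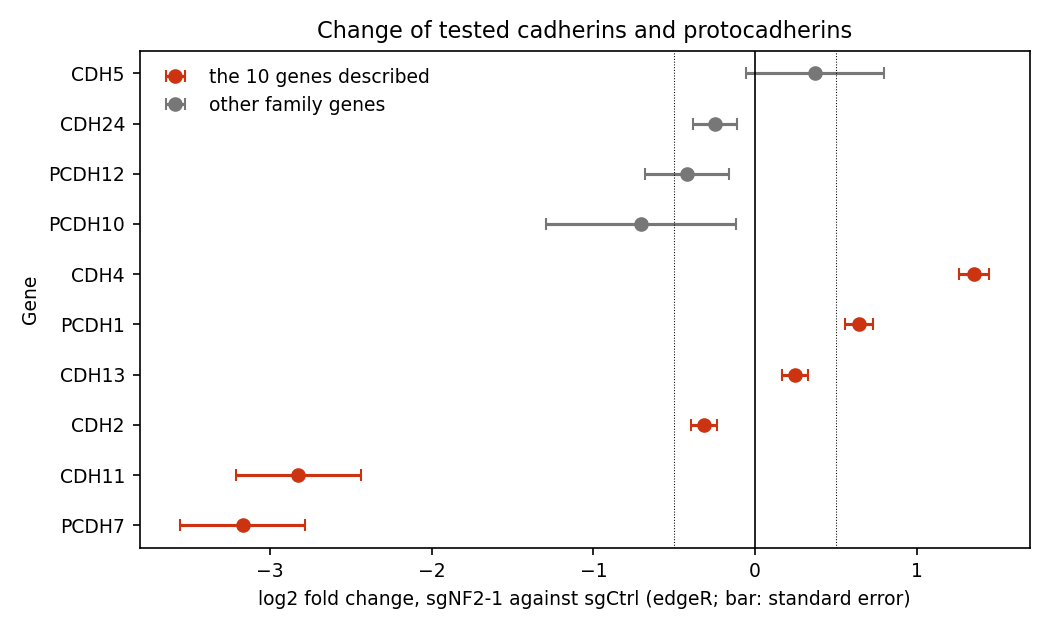
log2 fold change in sgNF2-1 against sgCtrl (horizontal axis, edgeR, bars are standard errors) of the 6 tested genes described here (red) and of the 4 tested genes among other cadherins and nonclustered protocadherins (grey); dotted lines mark the fold limit of 0.5. The red points spread from -3.17 for *PCDH7* to 1.35 for *CDH4*, and the grey points from -0.71 to 0.37. The red genes were chosen with their values known, so the difference in spread is a description.

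The profiles most like the 2 extremes were taken from 13136 genes with a mean of at least 1 CPM, by the distance between the 6 log2 CPM values, each less the mean of the gene in sgCtrl. Nearest to *PCDH7* were the type I collagen genes *COL1A1* and *COL1A2*, at distances of 0.769 and 0.808 and with log2 fold changes of -2.95 each, and *IL13RA2*, which encodes a decoy receptor for interleukin 13, at a distance of 0.856. Nearest to *CDH4* were *TLN2*, which encodes the integrin adaptor talin 2, *STC2*, which encodes the secreted glycoprotein stanniocalcin 2, and *FAM241A*, at distances of 0.097, 0.122 and 0.151 and with log2 fold changes of 1.37, 1.31 and 1.42. Such a search returns genes of like fold change by its design, so it does not test shared regulation. The *PCDH7* distances also rest on 4, 10 and 6 counts of that gene in sg*NF2*-1.

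Most of the other genes of the 2 families were not detected or did not pass the expression filter. Of 25 other cadherins and nonclustered protocadherins, 10 had 0 counts in every library, and 4 passed the expression filter. Of these 4, 0 were called by edgeR's test in either direction, beside 17.7% of all tested genes. DESeq2 called 0 of them, and 0 reached an unadjusted p under 0.05, a limit at which no share over all tested genes was taken. With only 4 tested genes, these counts do not set the 10 described genes apart from their relatives. *CDH24*, a type II cadherin, was per length the highest of the other cadherins, at a mean of 4.39 FPKM in sgCtrl against 3.67 in sg*NF2*-1, with 315, 299 and 211 counts in sgCtrl against 253, 223 and 216 in sg*NF2*-1 and a log2 fold change of -0.25 (standard error 0.14). *PCDH12*, which encodes vascular endothelial cadherin 2 and lies 64338 bases from *PCDH1*, had 51, 47 and 62 counts in sgCtrl against 47, 44 and 29 in sg*NF2*-1, a log2 fold change of -0.42 (standard error 0.26). Below the filter, *CDH15*, the M-cadherin gene of muscle, had 10, 9 and 13 counts in sgCtrl against 0, 3 and 3 in sg*NF2*-1, while *PCDH17* had 3, 4 and 0 counts and then 9, 12 and 16 counts. These last 2 genes were picked after their values were seen. With no filter, *CDH15* was called lower and *PCDH17* higher, and 1 or both were called when any single library was left out.

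At the junction itself, the transcripts of the main catenins were abundant in both groups, and 2 desmosomal plaque genes were called higher. This list and those below were chosen with earlier results of these data known, so their counts are a description. Over all tested genes, 8.42% were called higher and 9.32% lower. Of 12 catenins and junction adaptors, 9 were tested, with 1 called higher and 0 lower in edgeR's test. Their median log2 fold change was -0.03, beside -0.0025 over all tested genes. At an adjusted p under 0.05 with no fold limit, 3 of them were higher and 2 lower, beside 17.7% and 16.6% of all tested genes. DESeq2 called 1 higher and 0 lower. The called gene was *PKP4*, which encodes the p120-catenin relative plakophilin 4. It rose from 71.3 ± 1.77 CPM to 101.8 ± 6.54 CPM (SD, n = 3 each), which was a log2 fold change of 0.51 ± 0.08 (SE) with an edgeR adjusted p = 3.6e-05. This value sat at the fold limit, and it was 0.496 without sg*NF2*-1 replicate 1 and 0.486 without sg*NF2*-1 replicate 2, just inside it.

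Per length, the highest gene of this list was *LIMA1*, which encodes the actin-binding protein EPLIN, with 360.2 ± 10.3 CPM in sgCtrl against 419.4 ± 21.5 in sg*NF2*-1 (SD, n = 3 each) and a log2 fold change of 0.22. *CTNNA1*, the alpha-catenin gene, and *CTNND1*, the p120-catenin gene, had log2 fold changes of -0.01 and -0.03 (standard error 0.08 each). *CTNNB1*, the gene of beta-catenin, had 212.5 ± 9.35 CPM in sgCtrl against 151.0 ± 11.8 in sg*NF2*-1 (SD, n = 3 each), which was a log2 fold change of -0.49 ± 0.08 (SE) with an edgeR adjusted p = 4.7e-05. This change lay just inside the fold limit and passed the limit without sgCtrl replicate 3 (-0.53) and without sg*NF2*-1 replicate 1 (-0.55). These 3 catenins were singled out after their values were seen, since they make up the complex on the classical cadherin tail.

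Among 11 desmosomal genes, 4 were tested, and edgeR called 2 higher and 0 lower, beside 8.42% and 9.32% of all tested genes. Their median log2 fold change was 0.41, with 2 higher and 0 lower at an unadjusted p under 0.05 and by DESeq2. *PKP2*, the gene of plakophilin 2, rose from 2.04 ± 0.309 CPM to 6.19 ± 0.231 CPM (SD, n = 3 each), which was a log2 fold change of 1.604 ± 0.23 (SE) with an edgeR adjusted p = 4.6e-06. *DSP*, the gene of desmoplakin, which ties the plaque to keratin filaments, rose from 6.00 ± 0.782 CPM to 10.4 ± 1.23 CPM (SD, n = 3 each), which was a log2 fold change of 0.79 ± 0.17 (SE) with an edgeR adjusted p = 0.00058. *DSG2* was the highest of the list per length, with 57.9 ± 7.29 CPM in sgCtrl against 59.1 ± 5.57 in sg*NF2*-1 (SD, n = 3 each) and overlapping groups. Every desmocollin gene had 0 counts in all libraries. The 4 nectin genes, which encode junction proteins outside the cadherin family, gave 3 tested genes, with 0 called by edgeR or DESeq2. At an adjusted p under 0.05 with no fold limit, 0 of the 3 were higher and 1 lower, beside 17.7% and 16.6% of all tested genes. *NECTIN2* was the highest of the nectin genes per length, with a log2 fold change of -0.24 (standard error 0.09).

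*SNAI1* and *SNAI2*, which encode repressors of E-cadherin, moved in opposite directions, while *CDH1* had 0 counts in both groups. Of 12 transcriptional regulators of cadherins, 7 were tested, with 1 called higher and 2 lower, beside 8.42% and 9.32% of all tested genes. Their median log2 fold change was 0.03. *SNAI1*, which encodes the repressor Snail, fell from 8.61 ± 0.449 to 3.87 ± 0.740 CPM (SD, n = 3 each), with 138, 133 and 136 counts in sgCtrl against 77, 65 and 43 in sg*NF2*-1. On the log2 scale this was -1.14 ± 0.19 (SE), with an edgeR adjusted p = 3.7e-05. *SNAI2*, which encodes the related repressor Slug, rose from 1.99 ± 0.227 CPM to 3.45 ± 0.430 CPM (SD, n = 3 each), which was a log2 fold change of 0.80 ± 0.26 (SE) with an edgeR adjusted p = 0.021. *TWIST1* fell from 9.99 ± 0.792 to 6.95 ± 0.983 CPM (SD, n = 3 each), which was a log2 fold change of -0.52 ± 0.16 (SE) with an edgeR adjusted p = 0.015.

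The *SNAI2* call was lost without sgCtrl replicate 2, sg*NF2*-1 replicate 1 or sg*NF2*-1 replicate 2 (adjusted p = 0.0835, 0.0755 and 0.0700 in edgeR, and 0.0168 to 0.0835 over all its alternatives). The *TWIST1* call was lost without sgCtrl replicate 1, sgCtrl replicate 3 or sg*NF2*-1 replicate 3 (log2 fold changes of -0.48, -0.49 and -0.41). *TCF3*, the highest of the list per length, had a log2 fold change of 0.13 (standard error 0.09). The epithelial regulators *GRHL2*, *OVOL1* and *OVOL2* had 0 counts in every library.

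**Figure D4:**
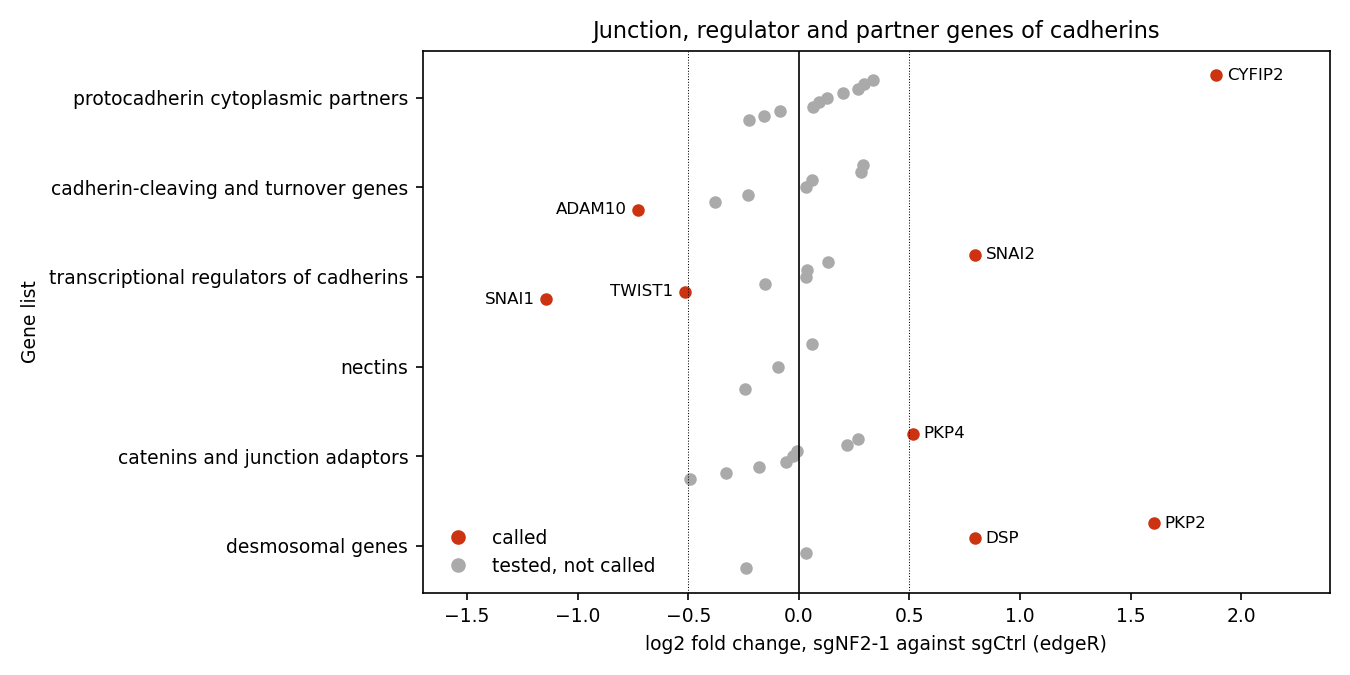
log2 fold change in sgNF2-1 against sgCtrl (horizontal axis, edgeR) of the tested genes of 6 lists (vertical axis), with called genes in red and named; dotted lines mark the fold limit of 0.5. The called genes ran from *SNAI1* at -1.14 to *CYFIP2* at 1.89, and most tested genes lay inside the fold limit.

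Of 7 genes for cleavage and turnover of cadherins, all were tested, with 0 called higher and 1 lower in edgeR and in DESeq2. Over all tested genes, edgeR called 8.42% higher and 9.32% lower. At an unadjusted p under 0.05, 2 of the 7 were higher and 3 lower. *ADAM10*, the protease that sheds the extracellular part of N-cadherin and E-cadherin, fell from 236.6 ± 11.6 to 142.7 ± 9.56 CPM (SD, n = 3 each), which was a log2 fold change of -0.73 ± 0.08 (SE) with an edgeR adjusted p = 1.6e-07. The most highly expressed gene of this list per length was *NCSTN*, a gamma-secretase subunit, with a log2 fold change of -0.23 (standard error 0.08).

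The cytoplasmic partners of protocadherins, which include the actin-regulating WAVE complex, gave 11 tested genes of 11. Of these, 1 was called higher and 0 lower in edgeR and in DESeq2, beside 8.42% and 9.32% of all tested genes in edgeR. Their median log2 fold change was 0.13. At an adjusted p under 0.05 with no fold limit, 3 were higher and 0 lower, beside 17.7% and 16.6% of all tested genes. *CYFIP2*, a WAVE complex subunit, rose from 20, 21 and 18 counts to 82, 74 and 63 counts, which was a log2 fold change of 1.89 ± 0.26 (SE) with an edgeR adjusted p = 4.1e-06. *SET*, the highest of the list per length, had 466.3 ± 15.2 CPM in sgCtrl against 560.5 ± 6.39 in sg*NF2*-1 (SD, n = 3 each), which was a log2 fold change of 0.27 ± 0.08 (SE) that stayed inside the fold limit.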

How the data were processed

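RNA was measured in 6 H2452 libraries, grouped and numbered by the sample titles. The authors sequenced NEBNext Ultra libraries as paired-end reads and deposited 1 table of read counts, not normalized, and 1 of FPKM. The submitters' processing notes list HISAT2, StringTie 1.3.3b, featureCounts 1.5.0-p3 and hg38, and a strand setting is not given in the sources used here. Over 9892 genes averaging 100 counts or more, each deposited FPKM equalled the count divided, within 1%, by the length of the gene and by a single depth per library, which was 1.03 to 1.08 times the total count. Fits were made in R 4.3.3 (edgeR 4.0.16, DESeq2 1.42.0).

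Counts were filtered with filterByExpr (minimum count 10, minimum total 15), normalized by TMM and fitted with edgeR's quasi-likelihood model of the group over all 14179 tested genes, with Benjamini-Hochberg adjustment. The study's methods use DESeq2, which was run as an alternative, and give the limits of 0.05 and 0.5, applied here with the adjusted p. On simulated counts for this comparison (14179 genes), edgeR recovered 91.4% of 197 tested genes changed 2-fold or 3-fold in either direction and made 1 false call. The simulation held fewer changed genes than were called in the data and no change smaller than 2-fold. Its figures therefore do not cover calls near the fold limit.

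The 10 genes and the gene lists were chosen with earlier results of these data known. Named genes are the 10, *NF2*, the called genes and the highest gene by FPKM of each other list, and the 3 nearest profiles to the extreme members. *CTNNA1*, *CTNNB1*, *CTNND1*, *PKP3*, *JUP*, *CDH15* and *PCDH17* were named after their values were seen, as were genes given only as markers or at 0 counts. Genes annotated inside a member were named only by their counts. Chi-square values per degree of freedom of library pairs were 5.17 to 12.6 within groups, so no library was counted as a repeat. Alternatives were DESeq2, other size factors, library totals, other filters, a replicate block, leaving out each library, other call rules and, for FPKM, CPM divided by length. A listed leukocyte marker is not reported here.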

Additional observations from a re-analysis of the deposited data

How the results depend on the processing

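With an adjusted p and no fold limit, 2515 of all tested genes were higher (17.7%) and 2351 lower (16.6%). Among the 6 tested of the 10 described genes, 3 were higher and 3 lower. Among the 16 tested desmosomal genes, nectins, catenins and adaptors, 5 were higher and 3 lower. Among the 25 tested regulators, cleaving genes and protocadherin partners, 5 were higher and 5 lower. With library totals alone, 1 of the junction genes (*CTNNB1*, log2 fold change -0.52) was called lower and *PKP4* (0.49) was no longer called. With no filter, 1 of the other cadherins and nonclustered protocadherins was called higher and 1 lower. With at least 10 counts in every library, 0 of the 10 described genes were called lower, because *CDH11* and *PCDH7* were no longer tested. Leaving out 1 library at a time, the other cadherins and nonclustered protocadherins gave 0 to 1 genes called higher and 0 to 1 lower, the junction genes 0 to 1 lower, and the regulators, cleaving genes and partners 1 to 2 higher. The log2 fold change of *DSG2*, 0.03, ranged from -0.0646 to 0.113 in these fits and was below 0 without sgCtrl replicate 1 (-0.06) and without sg*NF2*-1 replicate 1 (-0.03), and the cause was not tested. CPM divided by length gave a summed level of the 10 genes of 89.4 in sgCtrl and 95.1 in sg*NF2*-1.

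Replicate numbers did not clearly pair the libraries. Deviations from the group means, over 14179 genes, correlated at -0.032 to 0.057 for same-numbered libraries and at -0.107 to 0.06 for the others. With the replicate number as a block, 1186 genes were called higher and 1316 lower, and the counts in the lists were as without it. Depth limits what can be said of *CDH1*, *CDH3*, *CDH6* and *PCDH9*.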
